A study of Homo sapiens with 4 samples.

Results

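The genes described here are 8 sensors, adaptors and proteases of the inflammasome and apoptosis pathways, namely IFI16, AIM2, PYCARD, CASP1, CASP4, CASP6, CASP8 and CASP9. They were taken by gene name from the array's annotation, and 13 probes on 22 spots of each array carry 1 of these names, out of 41000 probes for 29123 named genes. The set was selected on the log2 ratios of IFI16 and CASP4, which stood far above Ctrl on the GALNT3/T6 KO-labelled arrays and not on those of GALNT3 KO, so the values of the 8 genes on the GALNT3/T6 KO-labelled arrays, and those of IFI16 and CASP4 on all 4 arrays, are given as a description with no test.

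RNA of A2780s, an established human epithelial ovarian cancer (EOC) cell line, was measured with Agilent 2-color arrays. There were 2 groups of 2 clones, each clone on 1 array against Ctrl RNA. GALNT3 KO clones 1 and 2 were made with CRISPR/Cas9 directed at GALNT3, together with a repair plasmid that gives puromycin resistance. GALNT3/T6 KO clones 1 and 2 carried in addition a lentiviral shRNA against GALNT6, so that their second edit is a knockdown and their transduction and its selection cannot be told apart from the loss of GALNT6. The Ctrl cells were mock-transfected A2780s. The study's design text speaks of corresponding control clones, and the labels do not say whether the Ctrl RNA was the same on all 4 arrays. GALNT3 and GALNT6 encode enzymes that start O-linked glycosylation of proteins.

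The values are log2 ratios of the KO channel (Cy5, by the labels) over the Ctrl channel (Cy3), and a gene was called where its adjusted p in limma was at most 0.05 over 27223 genes. All 4 arrays lay on 1 slide, between 86.9% and 93.8% of the spots passed the scanner software's background test in any 1 channel of an array, and 0 spots were saturated. The check of the edited genes went against a label. GALNT3 stood at 4.80 and 5.08 on the GALNT3/T6 KO-labelled arrays, although the label names it as knocked out, and its probe failed the background test in both channels of the GALNT3 KO arrays. A CRISPR/Cas9 edit need not remove a transcript, and its part in this ratio was not tested. Whether the GALNT3/T6 KO-labelled arrays hold other samples than labelled, other cells or other Ctrl clones was not tested either. Every value given for them depends on it. GALNT6 stood at -0.47 and -0.38 on the GALNT3 KO arrays and at -0.66 and -0.69 on the others. The 5 epithelial markers were above background in both channels of all 4 arrays, and 4 of the 5 were higher on the GALNT3/T6 KO-labelled arrays, where KRT18 had a mean of 5.68, KRT19 of 4.81 and KRT8 of 2.83. Of the 3 ovarian cancer markers, PAX8 (1.21) and WT1 (1.01) were higher there too. Probes of 1 gene disagreed in size, with means from 0.43 to 5.68 over the 4 of KRT18 and from -0.01 to 1.21 over the 2 of PAX8. Of 5 leukocyte markers tested, 1 was called higher on these arrays, ITGAM (0.49, adjusted p = 0.00764, and 0.51 in GALNT3 KO, adjusted p = 0.0337), and 1 lower, CD3E (-0.36, adjusted p = 0.0277), while PTPRC and CD14 had means of 0.06 and 0.09 and were not called. Of 2 endothelial markers tested, VWF was called higher (1.32, adjusted p = 0.00416) and CDH5 had a mean of -0.15 (adjusted p = 0.186). Another VWF probe had a mean of -0.03. LYZ and PECAM1 were too dim for a test. The part of these shifts in the results below was not tested.

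Inflammasomes are protein platforms that switch on inflammatory caspases. A sensor such as AIM2 binds DNA in the cytosol and recruits the adaptor ASC, the product of PYCARD, which in turn clusters and activates CASP1. CASP1 matures the cytokines IL-1 beta and IL-18 and cuts gasdermin D, whose fragment opens pores in the plasma membrane, while CASP4 binds bacterial lipopolysaccharide directly and cuts gasdermin D without a separate sensor. CASP8 and CASP9 instead start apoptosis, from death receptors and from mitochondria, and CASP6 is cut further downstream. IFI16 and AIM2 belong to the PYHIN family of interferon-inducible DNA-binding proteins.

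Probes of the genes with the strongest values, and of AIM2, are shown first, because they state which stretch of each transcript was measured. For CASP4 the probe shown is not the one that stood for the gene, A_23_P35906 at chr11:104813629-104813688, but its other probe. Each is 60 bases, given 5′ to 3′ with hg19 positions of its alignment in the array's annotation, and the lower case marks that the whole stretch serves as the target. The positions are chr1:159023443-159023502 and chr1:159024619-159024678 for the pair of IFI16 probes, chr11:104815492-104815551 for CASP4, chr11:104897058-104897602 for CASP1, chr16:31212970-31213029 for PYCARD and chr1:159033306-159033365 for AIM2. The CASP1 alignment spans 545 bases and so is split over a gap. The files name no exon for a probe.
IFI16 A_23_P217866: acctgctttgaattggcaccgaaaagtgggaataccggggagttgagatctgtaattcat
IFI16 A_23_P160025: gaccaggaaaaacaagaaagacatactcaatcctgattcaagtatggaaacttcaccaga
CASP4 A_23_P35912: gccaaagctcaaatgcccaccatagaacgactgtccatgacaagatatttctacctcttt
CASP1 A_23_P202978: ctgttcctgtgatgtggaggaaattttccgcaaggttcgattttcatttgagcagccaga
PYCARD A_23_P26629: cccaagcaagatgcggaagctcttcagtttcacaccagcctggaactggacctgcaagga
AIM2 A_32_P44394: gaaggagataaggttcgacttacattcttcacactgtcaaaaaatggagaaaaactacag
None of the 13 probes of the 8 genes shares a run of 20 bases with any other probe on the array. The transcripts themselves were not compared, and CASP1, CASP4, CASP5, CARD16 and CARD17 are close relatives in sequence, so signal shared between them was not tested.

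The sensor IFI16 had high ratios on the GALNT3/T6 KO-labelled arrays with both of its probes. Its brighter probe, A_23_P217866, gave log2 ratios of 0.20 and 0.29 on the GALNT3 KO arrays and of 5.19 and 5.29 on the GALNT3/T6 KO-labelled arrays, a mean of 5.24 ± 0.07 (SD, n = 2) or 37.7-fold over Ctrl. The other probe gave 0.09 and 0.18 on the first pair of arrays and 4.62 and 4.59 on the second. With both probes the clones of a pair lay close to each other. IFI16 was selected on the gap between the 2 pairs of arrays, so nothing is read from that gap.

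AIM2 lies beside IFI16 on chromosome 1 and stayed close to the detection limit. Its ratios were 0.13 and 0.08 on the GALNT3 KO arrays and 0.38 and 0.46 on the GALNT3/T6 KO-labelled arrays. The Ctrl channel of the latter was not well above background, so their mean ratio of 1.34-fold has no measured baseline. Less local background and before normalization, the KO and Ctrl signals there were 61 and 85.3 for clone 1 and 100.8 and 83.6 for clone 2. Where a fold is given below as at least a value, it was reckoned against a dim probe. The level used was the higher of that probe's own and the lowest level well above background on the array. The probe failed the background test in both channels of GALNT3 KO clone 2. AIM2 thus entered the fit only through the GALNT3/T6 KO-labelled arrays, and its GALNT3 KO mean of 0.10 is a description with no test.

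PYCARD, which links a sensor to CASP1, gave -0.05 and -0.13 on the GALNT3 KO arrays and 2.63 and 3.097 on the GALNT3/T6 KO-labelled arrays. The mean of the latter was 2.86 ± 0.33 (SD, n = 2), or 7.26-fold over Ctrl, a wider gap between clones than for IFI16, CASP1 or CASP4. The GALNT3 KO mean of -0.09 was not called (adjusted p = 0.668).

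The inflammatory caspases had values like those of IFI16. CASP4 gave 0.06 and 0.32 on the GALNT3 KO arrays and 5.19 and 5.21 on the GALNT3/T6 KO-labelled arrays with A_23_P35906, the brighter of its probes on average over the 4 arrays, a mean of 5.20 ± 0.02 (SD, n = 2) or 36.7-fold. Its other probe, A_23_P35912, gave 0.16 and 0.12 on the first pair and 4.14 and 4.20 on the second, so the probes disagreed on the size of the ratio and not on its direction. CASP1 gave 0.47 and 0.26 on the GALNT3 KO arrays and 5.15 and 5.06 on the GALNT3/T6 KO-labelled arrays, a mean of 5.10 ± 0.06 (SD, n = 2) or 34.4-fold. Its GALNT3 KO mean of 0.36 was not called (adjusted p = 0.0717), although the fit on the GALNT3 KO arrays alone did call it, at an adjusted p of 0.0241.

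The apoptotic caspases did not have such values. CASP8, the initiator at death receptors, has 3 probes. The brightest gave 0.07 and -0.05 on the GALNT3 KO arrays but -1.25 and 0.01 on the GALNT3/T6 KO-labelled arrays, so its mean of -0.62 there rests on 1 clone. A probe printed on 10 spots of each array gave 0.09 and -0.22 on the first pair and -0.20 on both arrays of the second, with SDs between spots of 0.25 to 0.28, and the third probe gave -0.14 and -0.24 on the second pair. The clone with -1.25 was thus low with only 1 of the 3 CASP8 probes. The GALNT3 KO mean of 0.01 was not called (adjusted p = 0.984).

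CASP9, the initiator activated by the apoptosome, gave -0.05 and 0.01 on the GALNT3 KO arrays and -0.60 and -0.74 on the GALNT3/T6 KO-labelled arrays. Its second probe, A_23_P97309, gave 0.48 and 0.53 on the first pair and -0.09 and -0.35 on the second. Both probes put the second pair below the first, by similar amounts, but disagreed on where Ctrl lay. CASP9 was not called in GALNT3 KO (adjusted p = 0.878).

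CASP6 was the only 1 of the 8 genes called in GALNT3 KO. Its ratios were -0.96 and -0.68 there, a mean of -0.82 (SE 0.13, adjusted p = 0.0364, limma), which is lower in 2 of 2 clones. On the GALNT3/T6 KO-labelled arrays it gave -0.34 and -0.71, so the groups overlapped. The call was lost in 7 of 16 alternatives, among them without clone 1 (adjusted p = 0.281) or clone 2 (adjusted p = 0.41) of GALNT3 KO.

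**Figure D1:**
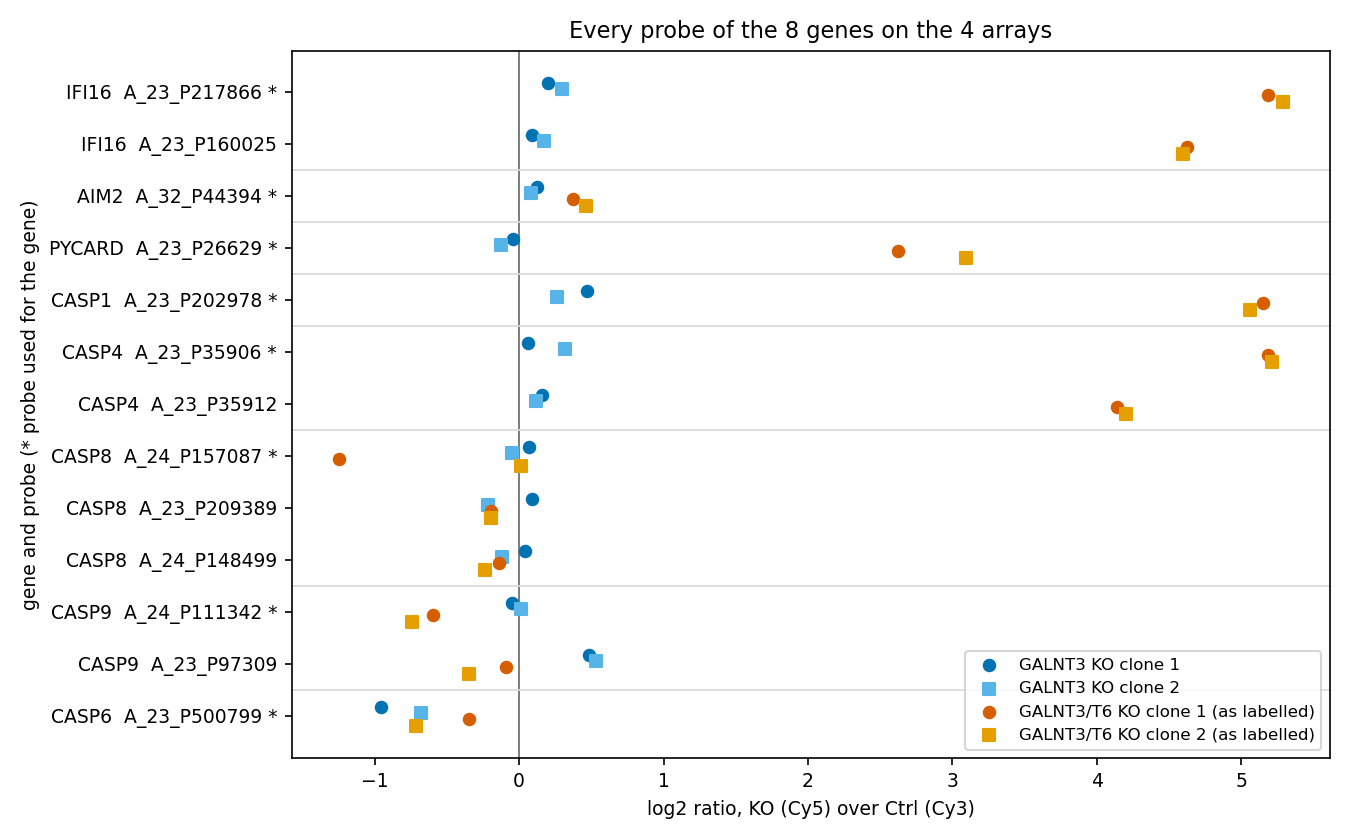
Log2 ratio of KO over Ctrl (x axis) for each of the 13 probes of the 8 genes (y axis, with an asterisk on the probe that stood for the gene), 1 point for each of the 4 arrays. IFI16, CASP1 and CASP4 lie above 4 and PYCARD above 2.6 on both GALNT3/T6 KO-labelled arrays, and 1 point of 1 CASP8 probe lies at -1.25 apart from the other CASP8 points.

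By counts, 0 of the 8 genes were called higher and 1 lower in GALNT3 KO against Ctrl, beside 4.69% higher and 6.35% lower among all genes. On the GALNT3/T6 KO-labelled arrays, 5 were called higher and 2 lower against Ctrl, beside 24.8% and 23.1% of all genes. Between the groups, 4 were called higher and 1 lower on the GALNT3/T6 KO-labelled arrays, beside 11.8% and 11.9%. Both of those arrays lay above both GALNT3 KO arrays for 5 genes and below for 1, where the shares over all genes were 29.9% and 30.9%. The last 2 comparisons used the contrast that selected the genes, so nothing is read from these counts. AIM2, counted among the 5 called higher against Ctrl, entered the fit only through the GALNT3/T6 KO-labelled arrays. The median of the 8 genes was 0.06 in GALNT3 KO and 1.64 on the GALNT3/T6 KO-labelled arrays, where the medians of all genes were 0.02 and 0.03.

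The levels behind the ratios showed a shift in the Ctrl channel as well. In normalized log2 units, the KO channel of IFI16 went from 8.68 and 8.11 on the GALNT3 KO arrays to 15.78 and 16.08 on the GALNT3/T6 KO-labelled arrays, and its Ctrl channel from 8.48 and 7.81 to 10.60 and 10.80. For the other IFI16 probe, the Ctrl signal less local background was 61.3 and 70.1 intensity units on the first pair and 1745 and 1911 on the second, while the KO signal went from 36.2 and 41.7 to 20939 and 44663. That probe failed the background test in both channels of the GALNT3 KO arrays, and its KO channel was at least 296-fold brighter on the other pair. The ratio on the GALNT3/T6 KO-labelled arrays was taken against a brighter Ctrl channel and was smaller than the difference between KO channels.

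CASP4, PYCARD and CASP1 had the same kind of shift. The Ctrl channel of CASP4 was at 9.38 and 9.98 on the GALNT3 KO arrays and at 12.07 and 11.74 on the GALNT3/T6 KO-labelled arrays, and that of PYCARD at 7.26 and 7.92 against 8.99 and 9.77. The mean Ctrl level was higher on the GALNT3/T6 KO-labelled arrays by 2.55 for IFI16, 2.22 for CASP4, 1.79 for PYCARD and 0.62 for CASP1, and differed by -0.15 to 0.12 for AIM2, CASP6, CASP8 and CASP9. The same held beyond these genes. Among the 123 genes with a ratio of at least 4 on both GALNT3/T6 KO-labelled arrays, the Ctrl level was higher on those arrays for 118 with a median of 1.71, against a median of -0.08 over all genes. The part of this shift in the ratios was not tested.

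**Figure D2:**
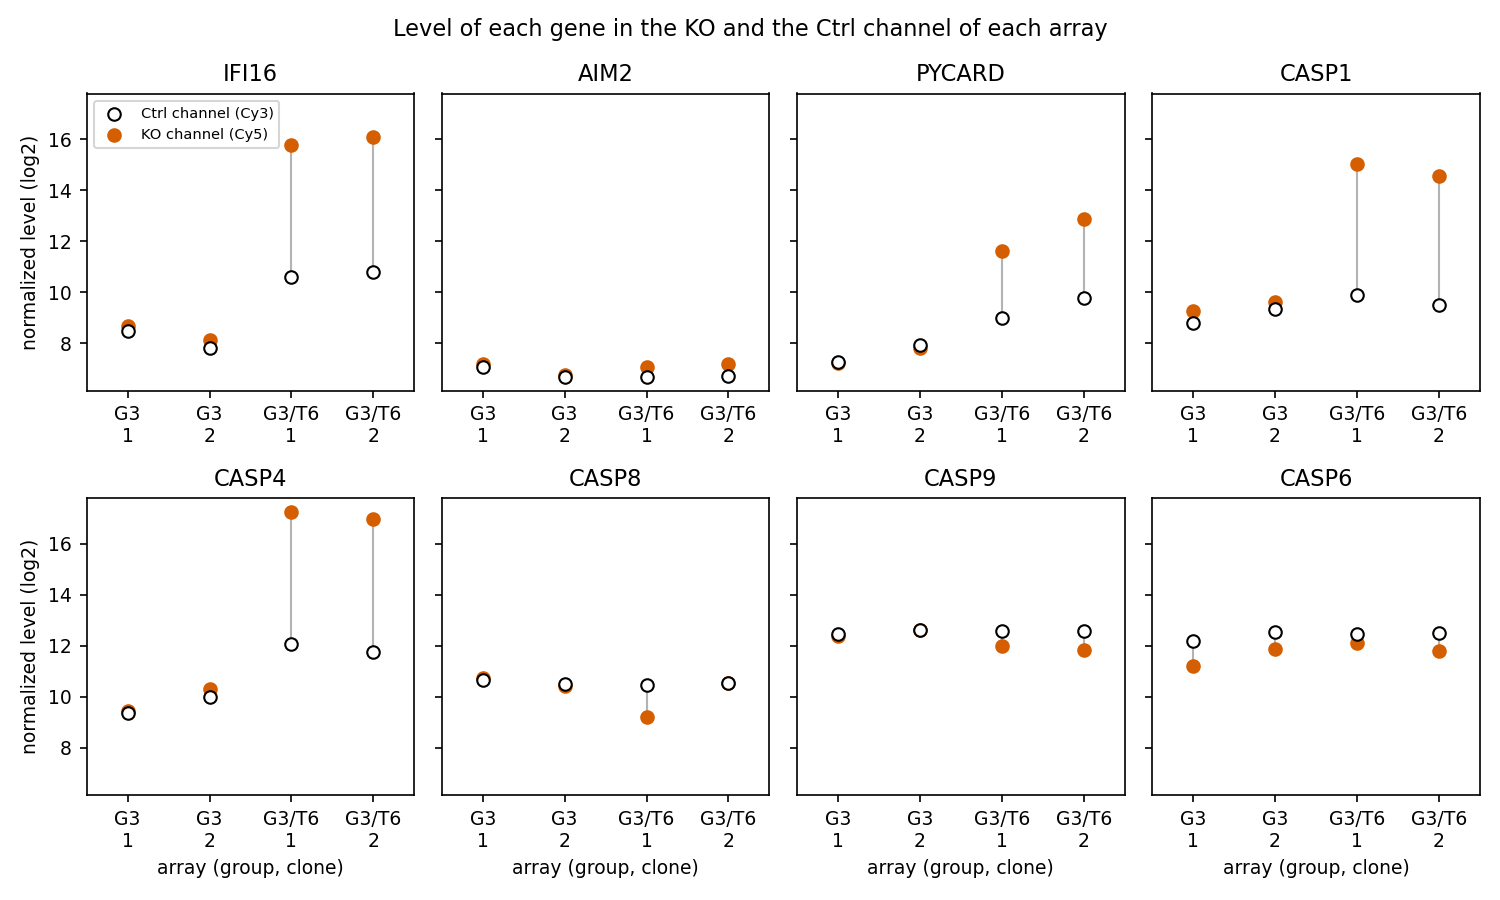
Normalized log2 level (y axis) of the 8 genes, by the probe that stood for each, in the KO channel (filled) and the Ctrl channel (open) of each array (x axis, G3 for GALNT3 KO and G3/T6 for the GALNT3/T6 KO-labelled arrays, with the clone number). The open points of IFI16, PYCARD and CASP4 also lie higher on the last 2 arrays. Panels show different probes, whose levels are not comparable with each other.

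Neighbours on the chromosomes were examined for 5 of the 8 genes, namely IFI16, AIM2, CASP1, CASP4 and PYCARD. CASP4, CASP5, CASP1, CARD16 and CARD18 follow each other on chromosome 11. CASP5, which like CASP4 recognises lipopolysaccharide, gave -0.26 and -0.16 on the GALNT3 KO arrays and 3.79 and 3.91 on the GALNT3/T6 KO-labelled arrays (mean 3.85, SE 0.09, adjusted p = 9.24e-05). CARD16, a CARD-only protein that binds CASP1, gave 4.75 and 4.69 on the second pair (mean 4.72). Its probe failed the background test in both channels of the GALNT3 KO arrays. It entered the fit only through the second pair, where it was high, so the value is a description with no test. Another CARD16 probe had a mean of -0.05. CARD17, of the same kind and cluster, gave 2.70 and 2.16 (mean 2.43, adjusted p = 0.000486).

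Both ends of the cluster were lower. CARD18 had a mean of 0.15 (adjusted p = 0.215) and CASP12, a member of the cluster that is inactive in most people, of 0.01 (adjusted p = 0.941). On the far side of CASP4, DDI1 gave 0.04 and -0.06, and beyond CARD18, GRIA4 gave 0.29 and 0.02. The next gene, MSANTD4, was higher again, at 1.56 and 1.80 (mean 1.68, adjusted p = 0.00049). Of the 5 relatives that are not among the 8 genes, 3 were called higher and 0 lower, beside 24.8% and 23.1% of all genes. CARD16 is counted among the 3. In GALNT3 KO none of the 5 was called by limma at an adjusted p of 0.05.

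The PYHIN genes did not move as a cluster. MNDA, which stands before IFI16, gave 0.37 and 0.38 on the GALNT3 KO arrays and 0.20 and 0.35 on the GALNT3/T6 KO-labelled arrays (mean 0.28, adjusted p = 0.0508). PYHIN1 gave -0.10 and 0.02 on the first pair and -0.01 and -0.19 on the second. Beyond AIM2, the adhesion gene CADM3 was lower, at -0.44 and -0.56 on the second pair (adjusted p = 0.0248). Among the 12 genes of this stretch, only IFI16 had a measured ratio above 1 on any array.

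Around PYCARD some genes were raised and others were not. PYDC1, a pyrin-only protein that binds ASC, is next to it and gave 0.16 and -0.10 on the GALNT3 KO arrays and 1.31 and 1.99 on the GALNT3/T6 KO-labelled arrays (mean 1.65, adjusted p = 0.00284). PRSS36, a serine protease, gave 2.40 and 1.72 on the second pair (mean 2.06, adjusted p = 0.00132). The gene next beyond PYDC1 had a mean of 0.11 there (adjusted p = 0.312, limma). Means of the other flanking genes lay between -0.83 and 0.49.

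**Figure D3:**
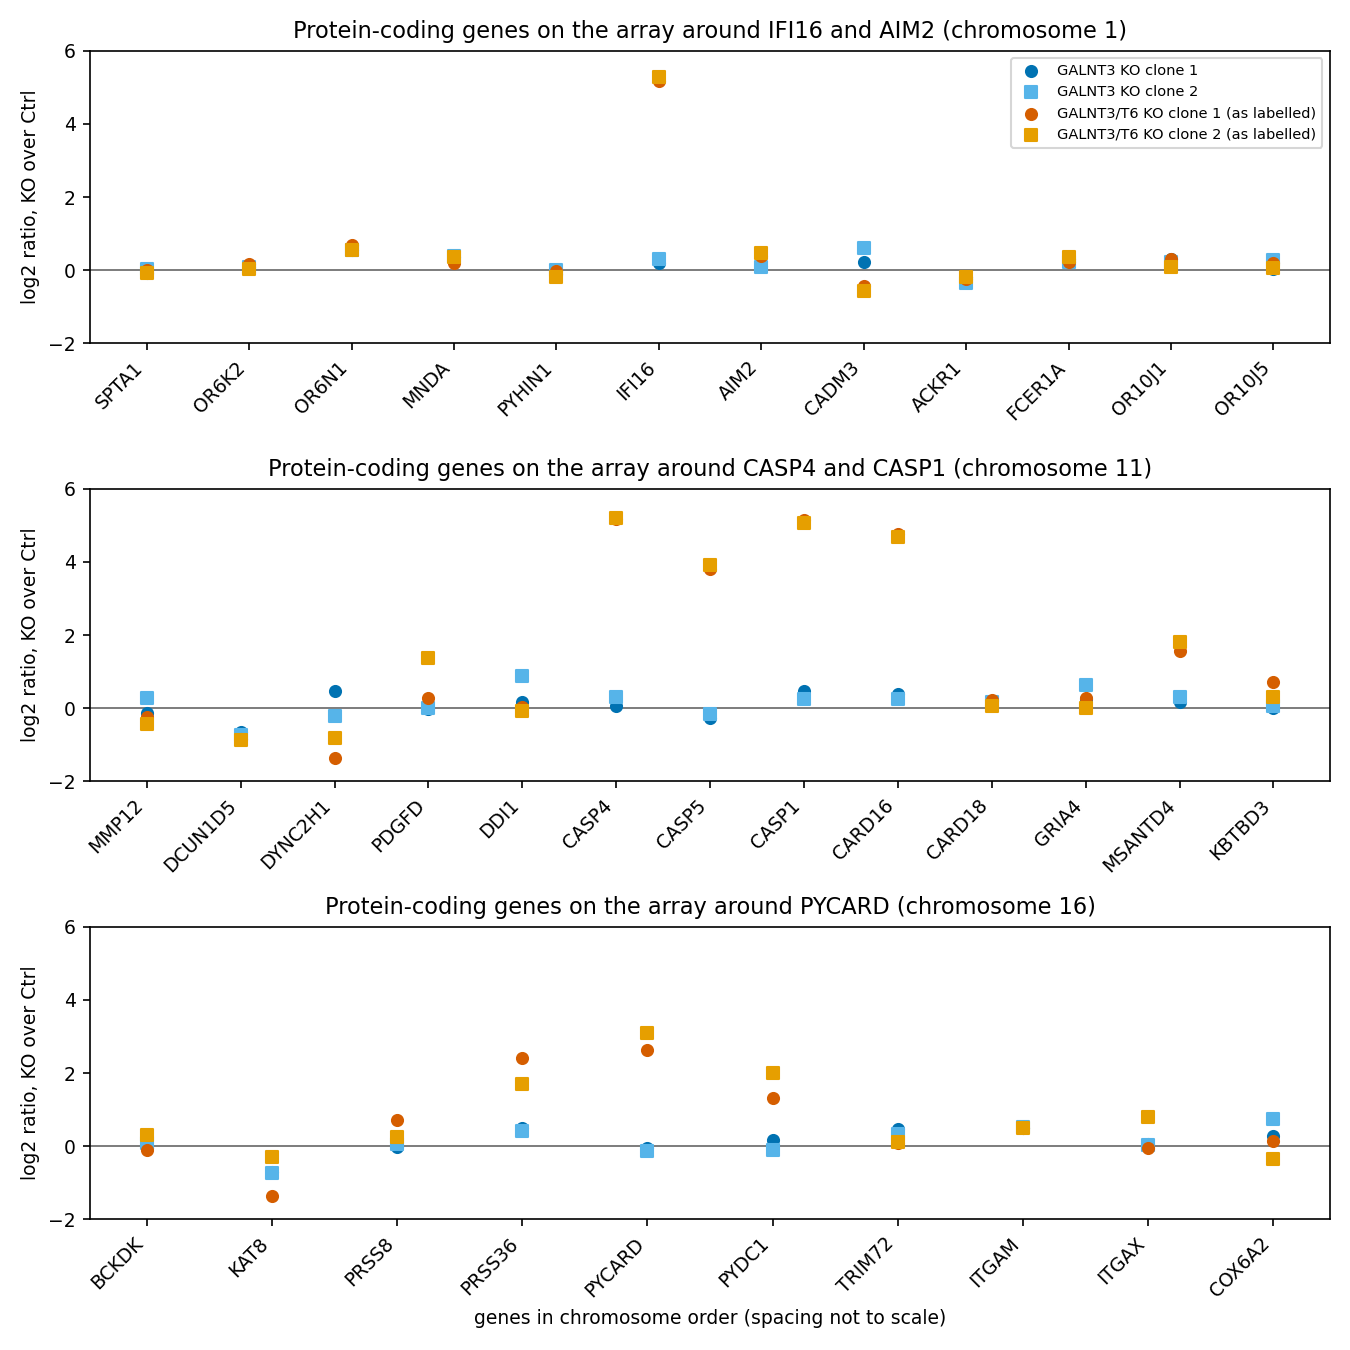
Log2 ratio of KO over Ctrl (y axis) on the 4 arrays for protein-coding genes in chromosome order (x axis, not to scale) around IFI16 and AIM2, CASP4 and CASP1, and PYCARD. CASP4, CASP5, CASP1 and CARD16 lie together above 3.7 on the GALNT3/T6 KO-labelled arrays, and IFI16 is the 1 gene above 1 on chromosome 1.

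Promoters of 7 of the 8 genes, in 11 windows of 250 bases before to 50 bases after a gene's start, were matched by symbol in the table of RefSeq promoters (GRCh38.p14), which gave no window for CASP1. IFI16 and CASP4, which had the same pattern, are shown with AIM2, the neighbour of IFI16 with measured ratios under 1. The 250 bases before the start are printed, 5′ to 3′ along the gene's strand, with matches of either GAAA repeat described next in capitals. They lie at chr1:159009657-159009906 on the plus strand for IFI16 (the second of 2 windows), at chr11:104968575-104968824 on the minus strand for CASP4 and at chr1:159076767-159077016 on the minus strand for AIM2.
IFI16 promoter: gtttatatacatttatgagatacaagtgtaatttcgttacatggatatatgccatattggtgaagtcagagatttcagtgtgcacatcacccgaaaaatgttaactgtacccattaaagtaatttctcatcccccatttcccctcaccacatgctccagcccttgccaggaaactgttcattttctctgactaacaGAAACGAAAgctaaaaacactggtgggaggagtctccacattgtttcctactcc
CASP4 promoter: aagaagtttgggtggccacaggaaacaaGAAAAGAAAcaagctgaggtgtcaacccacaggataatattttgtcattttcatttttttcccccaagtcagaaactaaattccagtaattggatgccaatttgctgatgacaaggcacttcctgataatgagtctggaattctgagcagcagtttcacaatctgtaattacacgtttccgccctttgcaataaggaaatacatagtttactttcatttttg
AIM2 promoter: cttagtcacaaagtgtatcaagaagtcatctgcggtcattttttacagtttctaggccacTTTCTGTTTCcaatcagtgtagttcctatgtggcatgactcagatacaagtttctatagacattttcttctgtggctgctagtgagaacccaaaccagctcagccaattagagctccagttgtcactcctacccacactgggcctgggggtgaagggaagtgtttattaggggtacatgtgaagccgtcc
GAAA, any 2 bases and GAAA again are the core letters of the interferon-stimulated response element, GAAANGAAA is the same with 1 base fewer between the repeats, chosen after the sequences were seen, and TTCNNNGAA gives the letters of the gamma-activated site, all searched on both strands. GAAANGAAA starts 54 bases before the start of IFI16 and 222 bases before that of CASP4, both on the gene's strand, and was found in 3.12% of 35116 promoters. The core with 2 bases between was found before AIM2 at 190 bases, in 1 of the 3 CASP8 windows, before CASP5 and before MNDA, and in 3.57% of all promoters. TTCNNNGAA was found for CASP8 and CASP5, against 7.66% of all. A match is not a binding site, and these letters occurred before genes with high ratios and before genes without.

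The promoters also differed in CG content. The windows of IFI16 held 1 and 3 CG pairs, those of AIM2 and CASP4 2 and 3, and that of CASP5 0, where the median over all promoters was 14. The windows of PYCARD (23), CASP6 (28) and CASP9 (36 and 30) held more, and those of CASP8 held 5 or 6. PYCARD thus combined a CG-rich promoter with a ratio above 2, while IFI16 and CASP4 have CG-poor ones.

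The genes whose pattern over the 4 arrays was most like that of IFI16 included its fellow members. By Euclidean distance between log2 ratios, CASP4 was the nearest of all genes to IFI16 and IFI16 the nearest to CASP4 (distance 0.161), which the selection made likely. Next to IFI16 came the unnamed probe A_24_P247303 (0.289), the transcript ENST00000527480 (0.347), CASP1 (0.353) and MAL2 (0.356), a membrane-trafficking protein of epithelial cells. CASP4 shared 3 of these besides IFI16, with ENST00000604826 (0.41) as the fifth. IFI16 was 33rd and CASP4 37th of all genes by mean ratio on the GALNT3/T6 KO-labelled arrays.

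The rest of the pathway was read from 11 lists with 100 genes other than the 8, of which 98 were tested. In GALNT3 KO 7 were called higher (7.14%) and 5 lower (5.1%). Among the higher ones were FAS, NLRP1, IL18BP, SERPINB9, IRF1 and BCL2, and the lower ones NLRP2, IRF2, RIPK1, BIRC5 and XIAP, several of them named after their values were seen. On the GALNT3/T6 KO-labelled arrays 48 were called higher (49%) and 15 lower (15.3%) against Ctrl, and between the groups 32 higher (32.7%) and 6 lower (6.12%). These shares stand beside the 24.8%, 23.1%, 11.8% and 11.9% of all genes given above. The lists were made with results of these data known and are a description only.

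The list of inflammasome outputs mixes gasdermins, NINJ1, cytokines and the cytokine antagonists IL1RN and IL18BP. On the GALNT3/T6 KO-labelled arrays 9 of its 12 genes were called higher and 0 lower, beside 24.8% and 23.1% of all genes. The median of the list was 0.69. Among the 9 were IL1RN (0.87) and IL18BP (0.47), and IL18BP was called in GALNT3 KO too (0.42). IL1A, also among them, entered the fit only through the GALNT3/T6 KO-labelled arrays. IL18, the cytokine matured by CASP1, gave -0.02 and 0.03 on the GALNT3 KO arrays and 4.63 and 4.67 on the GALNT3/T6 KO-labelled arrays (adjusted p = 9.24e-05). The pore-forming GSDME had a mean of 2.22 (adjusted p = 0.000283) and GSDMD of 1.89. GSDMD was above background on 1 of the 2 GALNT3 KO arrays in either channel. It may therefore have entered the fit only through the GALNT3/T6 KO-labelled arrays, where it was high. Its value is a description with no test. IL1B had a mean of 1.51 (adjusted p = 0.000605). Between the groups, 5 of the 12 were called higher and 0 lower, beside 11.8% and 11.9% of all genes.

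Of 7 inhibitors tested, 4 were called higher and 0 lower on the GALNT3/T6 KO-labelled arrays, beside 24.8% and 23.1% of all genes. CARD16, CARD17 and PYDC1 are described above, and CARD16 entered the fit only through these arrays. The other was SERPINB1, a serpin known to restrain inflammatory caspases, which gave 3.70 and 3.49 (mean 3.59, adjusted p = 9.6e-05). CARD18 (0.15), SERPINB9 (0.21) and CARD8 (-0.80) were not called. SERPINB1 stood at -0.16 and -0.20 on the GALNT3 KO arrays. The list shares 3 of its genes with the caspase cluster.

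Among other sensors and partners, 5 of 12 were called higher and 1 lower on the GALNT3/T6 KO-labelled arrays. The shares over all genes were 24.8% and 23.1%. NEK7, which NLRP3 needs for assembly, had a mean of 1.88 (adjusted p = 0.000466), NLRP3 itself of 1.25 (adjusted p = 0.00279) and NLRP1 of 0.53 (adjusted p = 0.00834). NLRP1 had a like mean of 0.52 in GALNT3 KO. NLRP2 was lower in both groups, at -0.66 in GALNT3 KO (adjusted p = 0.0341) and -1.54 on the GALNT3/T6 KO-labelled arrays (adjusted p = 0.000612), and the difference of -0.88 was called too (adjusted p = 0.0151).

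Of the guanylate-binding proteins, interferon-induced GTPases that help CASP4 reach lipopolysaccharide, 3 of 7 were called higher and 0 lower. Over all genes the shares were 24.8% and 23.1%. GBP3 had a mean of 4.40 (adjusted p = 0.000104), GBP1 of 3.51 (adjusted p = 9.8e-05) and GBP2 of 0.72 (adjusted p = 0.00249). GBP4, GBP5, GBP6 and GBP7 had means between -0.31 and 0.25 and were not called. In GALNT3 KO none of the 7 was called by limma at an adjusted p of 0.05.

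In cytosolic DNA sensing, where IFI16 is also placed, 4 of 12 were called higher and 3 lower, beside 24.8% and 23.1% of all genes. STING1, the adaptor downstream of cGAS, gave 0.17 and 0.46 on the GALNT3 KO arrays and 2.56 and 2.54 on the GALNT3/T6 KO-labelled arrays (adjusted p = 0.000187). The helicase DDX41 was lower, with a mean of -1.09 (adjusted p = 0.00357). SAMHD1, which limits cellular nucleotides, had a mean of 0.91 (adjusted p = 0.00598), and RNASEH2C, a subunit of an RNA-DNA hybrid nuclease, of 0.91 (adjusted p = 0.00205).

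Interferon signalling genes had values in both directions. On the GALNT3/T6 KO-labelled arrays 7 of 13 were called higher and 2 lower, beside 24.8% and 23.1% of all genes. IRF7 stood at 3.29 (adjusted p = 9.24e-05), IFNGR1 at 2.54 (adjusted p = 0.000687) and IRF9 at 1.80 (adjusted p = 0.00196). IRF7 and IRF9 each have a second probe with a much smaller mean, of 0.49 and 0.22. The receptor genes IFNAR1, IFNAR2 and IFNGR2 had means between -0.35 and -0.27 and were not called.

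**Figure D4:**
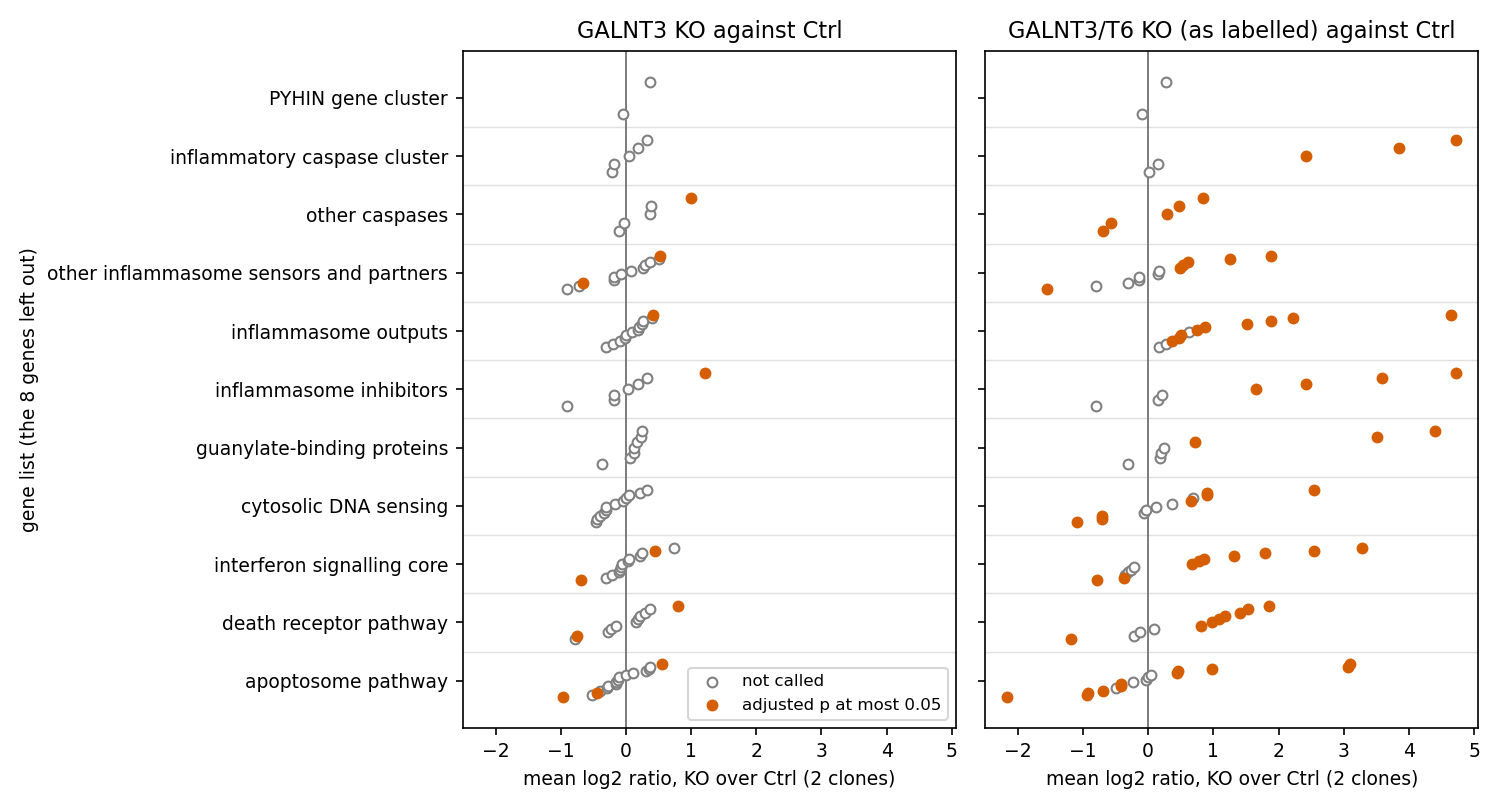
Mean log2 ratio of KO over Ctrl over 2 clones (x axis) for the genes of 11 lists (y axis, the 8 genes left out), in GALNT3 KO (left) and on the GALNT3/T6 KO-labelled arrays (right), with genes called at an adjusted p of at most 0.05 filled. The right panel reaches 4.72, for CARD16, and the left panel stays between -0.97 and 1.21.

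Partners of CASP8 in the death receptor pathway were called higher for 7 of 11 genes and lower for 1 on the GALNT3/T6 KO-labelled arrays. All genes gave 24.8% and 23.1%. MLKL, the pore former of necroptosis, had a mean of 1.86 (adjusted p = 0.00061), the death ligand TNFSF10 of 1.53 (adjusted p = 0.0104) and TNFRSF1A of 1.40 (adjusted p = 0.000527). TNFSF10 differed between the clones, at 0.98 and 2.07. TNFRSF10B, a receptor of that ligand, was lower, at -1.22 and -1.15 (adjusted p = 0.00117).

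Among partners of CASP9, 5 of 16 were called higher and 6 lower, beside 24.8% and 23.1% of all genes. Their median was -0.14. PMAIP1, which opposes MCL1, had a mean of 3.09 (adjusted p = 0.000104) and the inhibitor BIRC3 gave 3.79 and 2.34 (mean 3.07, adjusted p = 0.00282). BAX, which permeabilises mitochondria, was lower at -2.58 and -1.74 (mean -2.16, adjusted p = 0.00186), and another of its 3 probes had a mean of -0.62. BIRC2 had a mean of 0.98 (adjusted p = 0.00342), and APAF1, the scaffold that activates CASP9, of -0.70 (adjusted p = 0.00688).

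Of the other caspases, CASP10, CASP2 and CASP14 were called higher on the GALNT3/T6 KO-labelled arrays, with means far below those of CASP1 and CASP4. CASP10, a relative of CASP8, had a mean of 0.84 (adjusted p = 0.002), though its 3 probes ranged from -0.03 to 1.12. CASP2 had a mean of 0.48 (adjusted p = 0.00876), though its 3 probes ranged from -0.09 to 0.48. Its call was lost with the mean of all probes (0.24, adjusted p = 0.179) and with median centring (adjusted p = 0.0906). CASP14 had a mean of 0.29 (adjusted p = 0.0465). The calls of CASP14 and TNFSF10 against Ctrl on those arrays were lost without either GALNT3 KO clone (adjusted p between 0.0551 and 0.111), and that of CASP2 with Agilent's own log ratio (adjusted p = 0.272).

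The p-values measure the spread of the ratios between clones, and the spread of the Ctrl RNA, the other channel of every array, was not measured on its own. With 2 clones a group, leaving out a GALNT3 KO clone ended every call in that group, and leaving out either reduced the listed genes called higher between the groups from 32 to 10.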

How the data were processed

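Total RNA of each KO clone was hybridized against Ctrl RNA. The authors extracted spot intensities with Agilent Feature Extraction (version 8.5.1.1 in the submitters' processing notes, 10.7.3.1 in the file headers, design annotated on hg19), and the deposited table and scanner files hold log10 ratios of the same arrays, which agreed within 0.005. These 2 kinds of ratio served as alternatives only.

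Intensities were background-corrected with normexp (offset 50) and loess-normalized within arrays, with control spots at weight 0 and outlier-flagged spots left out. Spots of a probe were averaged. Each gene was represented by the brightest of its probes that passed Agilent's background test on both arrays of a group in 1 channel. limma 3.58.1 (R 4.3.3, data.table at 1.17.8) fitted all 4 arrays, with Benjamini-Hochberg adjustment over 27223 genes and a threshold of 0.05. No dyes were swapped by the labels, while the methods speak of reverse-color labelling of Ctrl, so the direction is that of the labels. Channel levels were quantile-normalized on their mean (Aquantile) and are open to dye bias. A simulation with known changes checked the fit.

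The members and lists were chosen with earlier results of these data known. Named were the 8 genes with every probe, up to 4 called genes a list by size, all genes of both clusters, 5 flanking genes a side and the 5 nearest by Euclidean distance over 4 arrays. A few of these genes are not reported here, also in the plot of gene order. Of 125 listed symbols 124 were on the array, 3 under an older symbol. The clones are the replicates, and nothing says whether their RNA came from separate cultures. Motifs were searched with Python 3.11.15, and figures drawn with matplotlib 3.10.9. Alternatives were other backgrounds, normalizations, probes, filters, tests, replicate blocks and leaving out each clone.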

Additional observations from a re-analysis of the deposited data

Results flagged for a closer look

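Of 74 genes outside the set of 8 that are named above, apart from those nearest to IFI16 and CASP4, 39 differed between the groups in limma at an adjusted p between 0.000419 and 0.0291, 34 of them higher and 5 lower in the GALNT3/T6 KO-labelled pair than in GALNT3 KO. Many of the 74 were named because a comparison had called them, so nothing is read from these counts. Over all genes, 11.8% were called higher and 11.9% lower between the groups. The values below are the log2 differences of the named genes, and the Ctrl channel, which also differed between the pairs of arrays, is part of them. Around the inflammatory caspases, CASP5 differed by 4.06, CARD16 by 4.40, CARD17 by 2.61 and MSANTD4 by 1.45. Beside AIM2, CADM3 differed by -0.92, and around PYCARD, PYDC1 differed by 1.62 and PRSS36 by 1.60. Among gasdermins and cytokines, IL18 differed by 4.65, GSDME by 2.24, GSDMD by 2.08 and IL1B by 1.33. SERPINB1 differed by 3.77, and SERPINB9, an inhibitor of granzyme B, by -1.002. Among sensors, NEK7 differed by 1.96, NLRP3 by 0.96 and NLRP2 by -0.88. The GTPases GBP3, GBP1 and GBP2 differed by 4.28, 3.44 and 0.60. In DNA sensing, STING1 differed by 2.23, SAMHD1 by 1.36 and RNASEH2C by 1.24. In interferon signalling, IRF7 differed by 3.26, IRF9 by 1.85 and IFNGR1 by 1.81. In the death receptor pathway, MLKL differed by 1.56, TNFRSF1A by 1.19 and TNFRSF10B by -1.55. In the apoptosome pathway, BIRC3 differed by 3.17, PMAIP1 by 2.99, BIRC2 by 1.13 and BAX by -1.64. Among markers, KRT18 differed by 5.09, KRT19 by 4.39, KRT8 by 3.05, WT1 by 1.14, PAX8 by 0.79 and VWF by 1.18. With the mean of all probes, the VWF call was lost, and 1 ovarian cancer marker was called in place of 2. GALNT3 itself differed by 4.76. The KO channel of CARD16, SAMHD1 and GALNT3 failed the background test on both GALNT3 KO arrays, so these differences have no measured baseline, and their KO channels were at least 144.5-fold, 2.72-fold and 53.5-fold brighter on the other pair. That of GSDMD and BIRC3 passed on 1 of the 2. CARD16 and GALNT3 failed on the GALNT3 KO arrays in the Ctrl channel too. Both entered the fit only through the GALNT3/T6 KO-labelled pair, so their differences are a description only. GSDMD passed on 1 of the 2 GALNT3 KO arrays in its Ctrl channel as well. It may have entered in the same way, and its difference is also a description only. Of these 39 calls, 26 were lost without GALNT3 KO clone 1 and 25 without clone 2.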

How the results depend on the processing

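The 74 named genes outside the set gave 222 results, and over 3478 alternative values none changed sign past the threshold, while 343 lost and 108 gained a call. For IFI16, CASP4, CASP1 and PYCARD on the GALNT3/T6 KO-labelled arrays, the means over 16 alternatives ranged from 4.92 to 5.29, 4.68 to 5.21, 4.77 to 5.15 and 2.63 to 3.11. In GALNT3 KO, median centring gave 546 genes higher, with 3 listed, against 1277 and 7 with loess. Agilent's log ratio gave 197 genes higher and 393 lower, with 1 listed gene each way, and the deposited table gave 197 and 388, again with 1 each way. The mean of all probes gave 4 listed genes higher. The arrays of the group alone gave 4590 and 4867, with 19 listed genes each way and 2 of the other 6 members called, where 1 was called otherwise. The unadjusted p with 1.5-fold gave 4 listed genes higher, and the methods' t-test with it 335 and 596, with 3 and 2 listed. Under both log ratios and both t-tests 0 members were called. Against Ctrl, the GALNT3/T6 KO-labelled arrays gave 3996 genes higher and 8 listed genes lower when fitted alone, 3966 higher with the unadjusted p and 1.5-fold, and 1450 higher and 1690 lower with the t-test, of which 14 and 2 were listed. Between the groups, both log ratios gave 10 listed genes lower. After Benjamini-Hochberg the t-test called 0 genes and 0 listed genes in either direction against Ctrl, and 24 genes higher and 10 lower between the groups, with 2 and 0 listed.

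With a replicate block, the paired fit, GALNT3 KO gave 30 genes higher and 52 lower, with 0 listed genes and 0 members called. Same-numbered clones deviated from their group means with r = -0.239. With 2 clones a group, this cannot settle whether the clone numbers pair the samples. The paper derived the double clones from GALNT3 KO clones, and the labels do not say from which. A crossed replicate block, chosen after seeing the data, gave 1493 higher and 2260 lower in GALNT3 KO, and 3542 and 3785 between the groups.

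Leaving out each clone in turn, GALNT3 KO gave 0 to 4644 genes higher and 0 to 4908 lower, with 0 to 19 listed genes either way and 0 to 2 members. The counts of 0 came without a GALNT3 KO clone. Against Ctrl, the GALNT3/T6 KO-labelled arrays gave 3999 to 6442 higher and 4333 to 6582 lower, with 39 to 48 and 8 to 18 listed. Between the groups there were 756 to 4556 higher and 504 to 4743 lower, with 10 to 41 and 0 to 11 listed. A lone clone was assumed to vary like the other group. The precision is limited by 4 arrays, and for AIM2, CARD16, SAMHD1 and GALNT3 by signal near background.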
